A study of Mus musculus with 3 samples.

Results

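The genes described here are 8 growth factors that macrophages can release (Igf1, Pdgfb, Pdgfc, Vegfa, Vegfb, Hbegf, Tgfb1 and Gdf15) and 2 receptors for such factors (Nrp1 and Fgfr1). They were taken by gene symbol from the gene lists of 3 single-cell libraries of mouse heart macrophages. Each symbol stood on 1 row in every library, which gave 10 of the 27998 genes that all the libraries list. The question was which macrophages hold the transcripts of each factor after a myocardial infarction and in the uninjured heart, and whether a factor keeps its level while the cells that hold it change.

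The day 11 library held macrophages sorted 11 days after infarction from Cx3cr1CreER-YFP/+:R26Td/+ mice, and the steady-state macrophage library held macrophages of uninjured hearts of the same genotype. The mixed library came from uninjured wild Type hearts and combined macrophages with dendritic cells (DCs). All mice were C57BL/6 and 8 to 12 weeks old. The reporter genotype places a CreER-YFP cassette in 1 copy of Cx3cr1, a gene that monocytes and macrophages use, with a Cre-dependent red reporter at Rosa26, so the mixed library differs from the others in genotype as well as in the sorted cells. All hearts were digested with flavopiridol, which blocks transcription, and macrophages were gated as live CD45+CD64+CD11b+ cells. The DC gate took CD64- leukocytes with CD11c and MHCII. Each group had 1 library, the number of animals behind it is not given in the labels, and no test between groups was possible. All intervals below are exact 95% intervals for counting error and do not include the spread between animals.

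Growth factors of macrophages act on fibroblasts, endothelial cells, cardiomyocytes and on the macrophages themselves, and their release is a known part of wound repair. Macrophages of the uninjured heart include long-lived resident cells, which in mice carry the surface proteins Timd4 and Lyve1. After infarction, monocytes marked by Ly6c2 and Ccr2 enter the heart and become macrophages, some of which express Arg1, an arginine-degrading enzyme, or Gpnmb, a membrane glycoprotein of lipid-loaded and phagocytic cells.

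After filtering, 4498 cells remained at day 11, 1742 in the steady-state macrophage library and 1742 in the mixed library. Clusters that expressed macrophage genes held 4405 cells at day 11, 1708 at steady state and 945 of the mixed library, and these are called macrophages here. Their median depth was 8149 UMIs (unique molecular identifiers, which count captured transcripts) at day 11, 10774.5 at steady state and 5360 in the mixed library. The 8 macrophage markers, none of them at 0, summed to 21463 CPM (UMIs on the counts-per-million scale) at day 11, 22808 CPM at steady state and 13683 CPM in the mixed library. Fibroblast markers summed to 282 CPM at day 11, 223 CPM at steady state and 186 CPM in the mixed library. Endothelial markers summed to 47.9 CPM at day 11, 72.8 CPM at steady state and 24.7 CPM in the mixed library, and the part of other cells in the values below was not tested. Pairs of libraries shared 7 to 11 cell barcodes. Gene levels were summed over the macrophages of a library and divided by their UMIs. In such sums, fewer cells with a transcript and less transcript per cell cannot be told apart, so the share of cells is given where it matters.

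Igf1 (ENSMUSG00000020053) lies on chromosome 10 from 87858265 to 87937042 of GRCm38, the build also called mm10. Pdgfb (ENSMUSG00000000489) lies on chromosome 15 from 79995874 to 80014977 and Pdgfc (ENSMUSG00000028019) on chromosome 3 from 81036416 to 81214040. Vegfa (ENSMUSG00000023951) lies on chromosome 17 from 46016993 to 46032369 and Vegfb (ENSMUSG00000024962) on chromosome 19 from 6982473 to 6987651. Tgfb1 (ENSMUSG00000002603) lies on chromosome 7 from 25687002 to 25705077. Gdf15 (ENSMUSG00000038508), Fgfr1 (ENSMUSG00000031565) and Nrp1 (ENSMUSG00000025810) lie on chromosome 8, from 70629393 to 70632456, 25513654 to 25575718 and 128358604 to 128503363. These are protein-coding genes, as is Hbegf (ENSMUSG00000024486), and a 3′ library counts reads near the transcript end without telling isoforms apart.

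Promoter windows from RefSeq on GRCm38, which run from 250 bases before to 50 bases after a transcript start, were found for 7 of the 10 genes. Those of Igf1 and Vegfa are shown because these factors had their highest day 11 levels in different classes of macrophages, Igf1 in the Gpnmb class and Vegfa in the Arg1 class. For Vegfa the table holds 2 starts, and the first is printed. The Igf1 window is chr10:87860861-87861160 on the plus strand and the Vegfa window is chr17:46032328-46032627 on the minus strand. Capitals mark matches to a loose AP-1 pattern (TGANTCA, with any base at N) in Igf1 and to the GC box (GGGCGG) in Vegfa, both strands searched.
Igf1: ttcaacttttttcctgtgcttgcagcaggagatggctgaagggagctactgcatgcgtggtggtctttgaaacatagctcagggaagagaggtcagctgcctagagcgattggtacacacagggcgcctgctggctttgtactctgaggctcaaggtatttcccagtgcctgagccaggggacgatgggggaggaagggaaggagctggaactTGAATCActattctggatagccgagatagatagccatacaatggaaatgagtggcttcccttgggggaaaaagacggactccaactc
Vegfa: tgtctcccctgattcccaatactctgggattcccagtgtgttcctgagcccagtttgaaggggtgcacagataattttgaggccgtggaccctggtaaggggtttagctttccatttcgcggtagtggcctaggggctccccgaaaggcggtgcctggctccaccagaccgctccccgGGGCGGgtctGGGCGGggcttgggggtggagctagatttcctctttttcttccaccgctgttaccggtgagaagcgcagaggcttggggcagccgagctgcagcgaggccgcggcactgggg
The AP-1 pattern, with A at N, stood at position 214 of the Igf1 window, counted from its first base. The search matched it on both strands because TGANTCA, with any base at N, is its own reverse complement. With any base at N, the pattern occurs in 7.81% of 32851 RefSeq promoter windows of this length. The printed Vegfa window held GC boxes at positions 179 and 189, a motif found in 35.7% of windows, and 62.0% of its bases were G or C. Neither printed window held the ACGTG form of the hypoxia response core (in 19.6% of windows), and other forms were not searched. Both also lacked the NF-kB site (0.411%), the TATA box TATAAA (13.6%) and the core of the amino acid response element (TGATGCAA, 0.895%). The window of the second Vegfa start, not printed, held ACGTG once and the GC box once. These matches describe letters and say nothing of binding.

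At day 11, Vegfa and Gdf15 were at least 2-fold higher than in steady-state macrophages, Hbegf and Fgfr1 were at least 2-fold lower, and the other 6 genes differed by less than 1.5-fold. The count is thus 4 of 10 genes past 2-fold. Among all 5321 genes that reached 20 CPM at day 11 or at steady state, 4.36% were past 2-fold, 1.69% higher and 2.67% lower, and 89.3% were within 1.5-fold. Of the 5 genes described here that reach this minimum, Fgfr1 was past 2-fold and the other 4 were within 1.5-fold. With a minimum of 5 CPM, 3 of 9 were past it (Gdf15, Hbegf and Fgfr1) against 5.41% of 9124 genes. Vegfa lies under both minima.

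**Figure D1:**
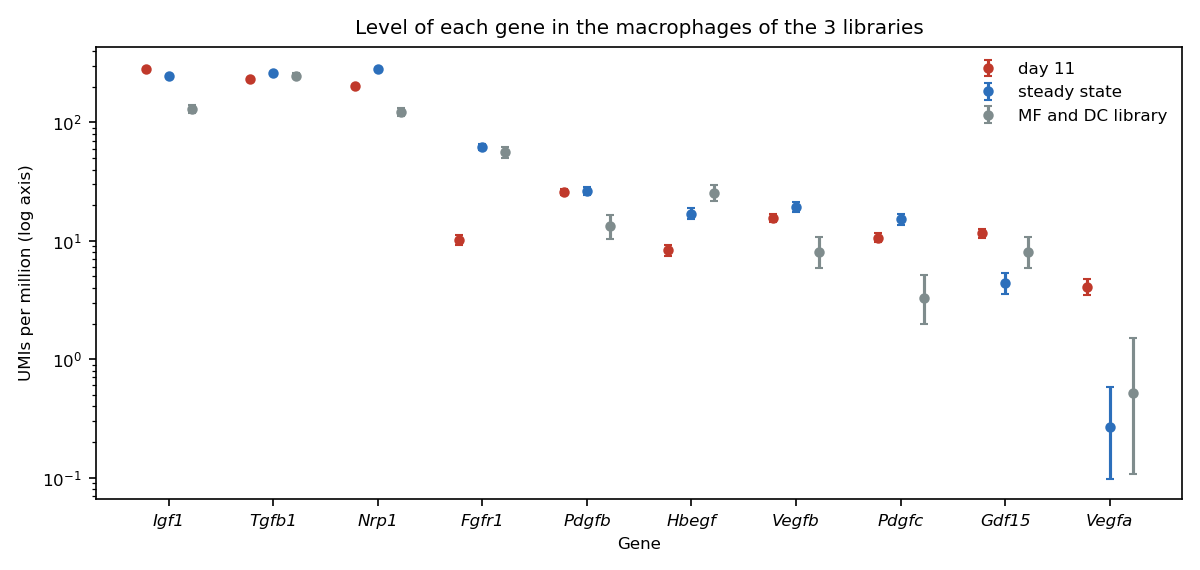
Level of each gene in CPM (log axis) in macrophages of day 11, of steady state and of the mixed macrophage and DC library, in the colours of the legend. Points are sums over 1 library and bars are exact 95% Poisson intervals. Vegfa and Fgfr1 separate day 11 from both other libraries, and the Tgfb1 points lie close together.

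Against macrophages of the mixed library, 5 of 10 genes were past 2-fold at day 11. Igf1, Pdgfc and Vegfa were higher and Hbegf and Fgfr1 lower, where 7.87% of 5054 genes were past 2-fold (5.34% higher, 2.53% lower). That share is over genes that reach 20 CPM at day 11 or in the mixed library, a minimum at which 3 of 6 of the genes described here were past 2-fold. At 5 CPM it was 4 of 9, against 10.1% of 8879 genes. The 2 uninjured libraries also differed from each other: Pdgfc, Vegfb and Nrp1 were at least 2-fold lower in the mixed library than in the steady-state macrophage library, where 7.22% of 5252 genes with at least 20 CPM were. At that minimum Nrp1 was the 1 of 6. Cluster 12 (Retnla, Lyz1 and Ear2 among its leading genes) drew 194 of its 205 cells from the mixed library and held Igf1 at 14.2 CPM there. Without it Igf1 left the count against that library, which was then 4 of 10. Nrp1, with a ratio of 1.66 when cluster 12 is included, then lay within 1.5-fold.

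Tgfb1 was the 1 gene of the 10 within 1.5-fold of both uninjured libraries, a range that held 72.6% of 5393 genes. Tgfb1 encodes transforming growth factor beta 1, which is secreted in a latent form and drives matrix production by fibroblasts once activated. It had 235 CPM at day 11 (230 to 240), against 262 CPM in steady-state macrophages (255 to 268) and 248 CPM in the mixed library (236 to 262). The ratio of day 11 to steady state was 0.898 (0.869 to 0.928), and that to the mixed library was 0.946 (0.895 to 1.00). At an equal depth of 3000 UMIs per cell, 49.3% of macrophages had a Tgfb1 UMI at day 11, 53.7% at steady state and 51.2% in the mixed library. DCs carried it too, at 151 CPM in the 72 of day 11 and 202 CPM in the 779 of the mixed library.

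While this level was nearly the same, the cells under it were not. To follow them, each macrophage was thinned to 3000 UMIs and put in the first of 7 exclusive classes for which it had a UMI: Timd4, Lyve1, Ly6c2, Arg1, Gpnmb, Ccr2, or none of these. The Timd4 and Lyve1 classes together held 9.79% of macrophages at day 11, against 54.4% at steady state. The Arg1 and Gpnmb classes together held 22.4% at day 11, against 0.761% at steady state. Of all UMIs, 47.5% would have to be assigned to another class to turn the steady-state make-up into that of day 11.

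For Tgfb1 this figure was 44.4%. Its UMIs came at day 11 with 10.6% from the Timd4 and Lyve1 classes, 27.9% from the Ccr2 class and 14.7% from the Gpnmb class. At steady state they came with 55.0% from the Timd4 and Lyve1 classes, 26.3% from cells with none of the status genes and 0.936% from the Gpnmb class. The level of Tgfb1 within a class spanned less than 1.5-fold over these classes. It ran at day 11 from 201 CPM in the Gpnmb class to 300 CPM in the Ly6c2 class, and at steady state, over classes of at least 20 cells, from 245 CPM in the Lyve1 class to 341 CPM in the Ly6c2 class.

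**Figure D2:**
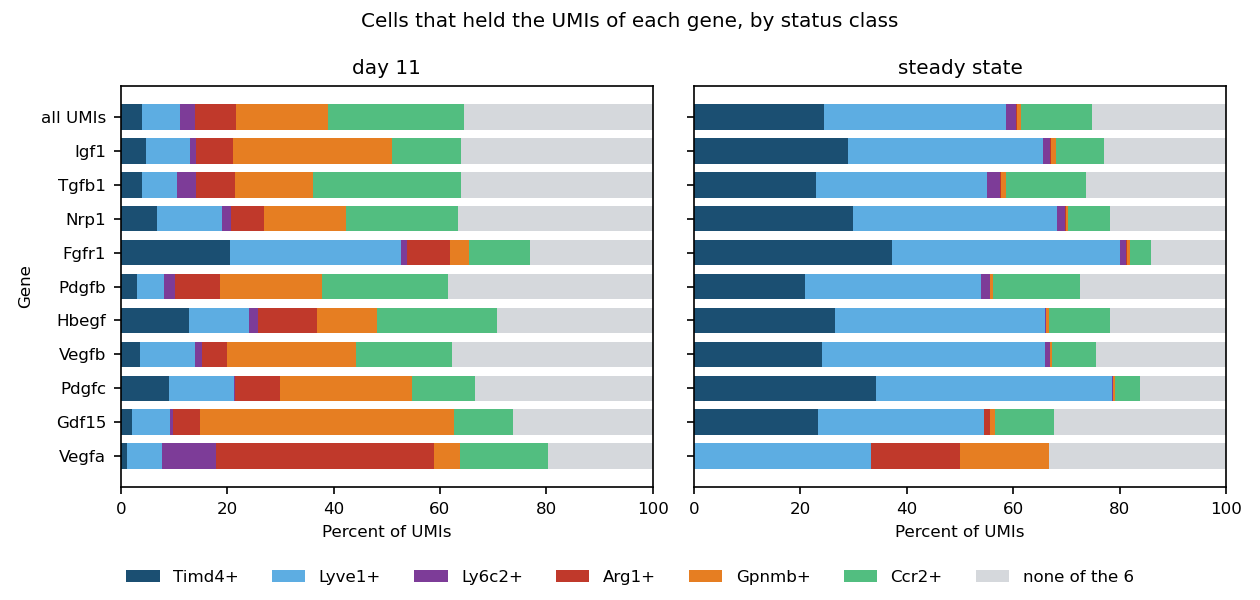
Percent of the UMIs of each gene, and of all UMIs (top bar), held by 7 exclusive classes of macrophages, at day 11 (left) and at steady state (right). The Timd4 and Lyve1 classes fill most of the steady-state bars except that of Vegfa, and the Arg1 and Gpnmb classes appear mainly at day 11. The steady-state Vegfa bar rests on 6 UMIs.

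Igf1 encodes insulin-like growth factor 1, a survival and growth signal for muscle and many other cells. Its level was 282 CPM at day 11 (277 to 287), against 247 CPM in steady-state macrophages (241 to 254) and 130 CPM in the mixed library (121 to 140). The ratio was 1.14 (1.10 to 1.18) to steady state and 2.17 (2.01 to 2.34) to the mixed library. At equal depth, 46.4% of macrophages had an Igf1 UMI at day 11, 43.9% at steady state and 25.4% in the mixed library. Day 11 and steady state thus lay close, and the mixed library lay below both. Without cluster 12, the ratio of day 11 to the mixed library was under 2-fold.

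The cells that held Igf1 differed more. The Timd4 and Lyve1 classes held 13.0% of Igf1 UMIs at day 11, against 65.7% at steady state. The Arg1 and Gpnmb classes held 36.9% at day 11, against 1.08% at steady state. Cells with none of the 6 status genes held 36.1% at day 11 and 23.0% at steady state.

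The Gpnmb class had the highest Igf1 level of the 7 day 11 classes, 490 CPM in 704 cells (474 to 507). The Timd4 class followed with 343 CPM and the Lyve1 class with 321 CPM, and their intervals overlap. The Ccr2 class had 142 CPM and the Ly6c2 class 122 CPM, also with overlapping intervals. At steady state the Timd4 class had 294 CPM, the Lyve1 class 266 CPM, the Ccr2 class 166 CPM and the Ly6c2 class 165 CPM. The Timd4 class of the mixed library had 341 CPM and its Ccr2 class 30.6 CPM. Resident-marked macrophages thus carried Igf1 at 294 to 343 CPM (Timd4) in all 3 libraries.

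Without the class order, all day 11 cells with a Gpnmb UMI had 463 CPM Igf1, against 236 CPM in cells without, a ratio of 1.96 (1.89 to 2.04). The difference was smaller within a cluster. In cluster 3 (Gpnmb, Syngr1 and Ctsd), whose 808 cells all came from day 11 and which held 33.9% of Igf1 UMIs there, Gpnmb-positive cells had 622 CPM and Gpnmb-negative cells 476 CPM (ratio 1.31, 1.22 to 1.39). In cluster 2 (Saa3, Ccl8 and Fn1) the ratio was 1.29 and in cluster 4 (Tmem119, Ms4a7 and Rgs1) it was 1.38. Cells with a Ccr2 UMI had 159 CPM at day 11, against 351 CPM in Ccr2-negative cells, which is 2.21-fold lower (2.11 to 2.31). At steady state they had 194 CPM against 271 CPM, 1.40-fold lower. DCs had 18.0 CPM Igf1 at day 11 (9.61 to 30.9) and 2.82 CPM in the mixed library.

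Vegfa encodes the main growth factor of blood vessels. It was scarce in every library: 169 UMIs at day 11, against 6 in steady-state macrophages and 3 in the mixed library. That is 4.08 CPM (3.49 to 4.75), against 0.267 CPM at steady state (0.0980 to 0.581) and 0.516 CPM for the mixed library (0.106 to 1.51). The ratio of day 11 to steady state was 15.3 (6.88 to 42.2), and that to the mixed library was 7.92 (2.66 to 38.8). No Vegfa UMI was found in the 72 DCs of the day 11 library, a count whose exact interval reaches 5.12 CPM.

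At day 11 the Arg1 class held 41.1% of Vegfa UMIs in 265 cells and the Ly6c2 class 10.1% in 102 cells. The level was 21.6 CPM in the Arg1 class (16.8 to 27.4) and 14.9 CPM in the Ly6c2 class (8.67 to 23.8), and between 1.13 and 3.70 CPM in the other 5. All day 11 cells with an Arg1 UMI had 21.5 CPM, against 2.37 CPM in cells without, a ratio of 9.08 (6.62 to 12.4). Cluster 7 (Arg1, Plac8, Cxcl3, Spp1 and Ly6c2) held 66.9% of the day 11 Vegfa UMIs. Within it, Arg1-positive cells had 53.4 CPM and Arg1-negative cells 17.3 CPM (3.09, 2.09 to 4.62). Vegfa was thus higher beside Arg1 within that cluster as well as over all cells. The same cluster held 2 of the 6 Vegfa UMIs of steady state, in 27 cells. In cluster 2, with 18.9% of Vegfa UMIs, Arg1-positive cells had 5.21 CPM and Arg1-negative cells 2.58 CPM, and the interval of the ratio spans 1 (0.853 to 4.44). Igf1 and Vegfa UMIs met in 7 day 11 cells at equal depth, where the product of their shares gives 17.2 cells. Of the 10 genes, Vegfa was the only one at least 2-fold higher in Arg1-positive day 11 cells, where 1.65% of genes with at least 20 CPM in the positive or the negative cells were.

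Gdf15 encodes a stress-induced member of the TGF-beta superfamily. It had 11.6 CPM at day 11 (10.6 to 12.7), against 4.41 CPM at steady state (3.58 to 5.37) and 8.08 CPM in the mixed library (5.93 to 10.7). The ratio was 2.62 (2.11 to 3.29) to steady state and 1.43 (1.06 to 1.98) to the mixed library. At equal depth 2.08% of macrophages had a Gdf15 UMI at day 11, 1.23% at steady state and 2.25% in the mixed library. The UMIs per such cell were 1.73 at day 11, 1.05 at steady state and 1.17 in the mixed library. The share of cells at day 11 thus lay between those of the uninjured libraries, and the UMIs per cell were higher than in both.

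The Gpnmb class held 47.8% of day 11 Gdf15 UMIs at 32.3 CPM, and the other classes had 2.63 to 11.4 CPM. All Gpnmb-positive cells had 29.6 CPM, against 7.13 CPM in Gpnmb-negative cells, a ratio of 4.16 (3.46 to 4.99). Gdf15 was the 1 gene of the 10 at least 2-fold higher in Gpnmb-positive cells, where 1.10% of genes were. Within cluster 3, which held 47.6% of Gdf15 UMIs, Gpnmb-positive cells had 45.5 CPM, 3.03 times the level of Gpnmb-negative cells (2.18 to 4.30). Fgfr1 was at least 2-fold lower in Gpnmb-positive cells, as were 1.57% of genes, but lay under 20 CPM in both.

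**Figure D3:**
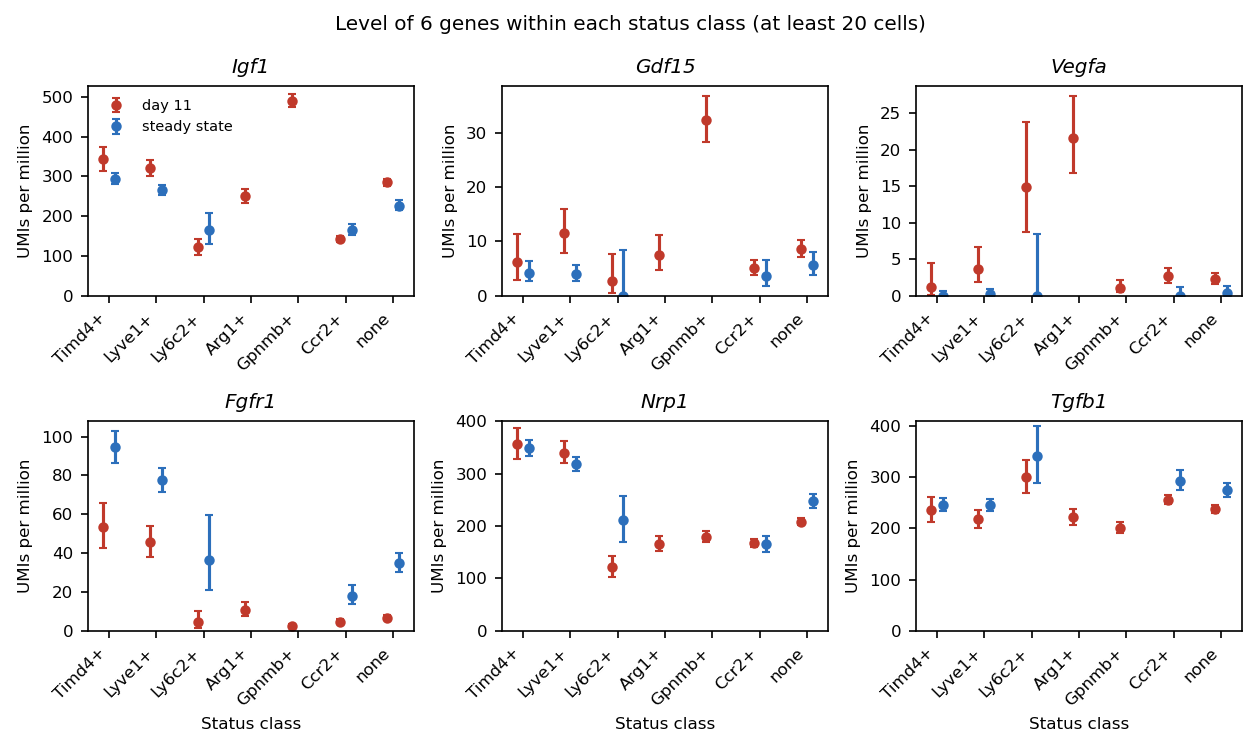
Level in CPM of 6 genes in each status class, at day 11 and at steady state, in the colours of the legend. Classes under 20 cells are left out, and bars are exact 95% Poisson intervals. Igf1 and Gdf15 are highest in the day 11 Gpnmb class, Vegfa in the Arg1 and Ly6c2 classes, Fgfr1 is highest in the Timd4 and Lyve1 classes, and Tgfb1 is much alike in all classes.

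Hbegf lies on chromosome 18 from 36504927 to 36515805. This heparin-binding member of the EGF family had 8.31 CPM at day 11 (7.45 to 9.23), against 17.0 CPM at steady state (15.3 to 18.8) and 25.4 CPM in the mixed library (21.5 to 29.9). It was 2.05-fold lower than at steady state (1.76 to 2.38) and 3.06-fold lower than in the mixed library (2.51 to 3.72). Day 11 cells with a Timd4 UMI had 27.3 CPM and those without had 7.58 CPM, a ratio of 3.60 (2.56 to 4.96), whereas at steady state the values were 18.5 and 16.5 CPM (1.12, 0.880 to 1.41). Hbegf in cluster 1 (Mmp13, Lilra5 and Serpinf1) was 18.4 CPM at day 11, 24.8 CPM at steady state and 90.6 CPM in the mixed library. The 2 uninjured libraries thus stood further apart in this cluster than day 11 and steady state did. At equal depth, 2.08% of day 11 macrophages had an Hbegf UMI, against 4.74% at steady state and 5.51% of mixed-library macrophages.

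Pdgfb and Pdgfc encode chains of platelet-derived growth factors, which act on fibroblasts and pericytes. Pdgfb had 26.0 CPM at day 11, against 26.4 CPM at steady state and 13.2 CPM in the mixed library. Its ratio to steady state was 0.982 (0.887 to 1.09). Its level in the 7 day 11 classes ran from 18.5 CPM in the Lyve1 class (14.0 to 24.1) to 28.7 CPM in the Gpnmb class (24.9 to 33.0). The Timd4 and Lyve1 classes held 8.13% of Pdgfb UMIs at day 11, against 54.0% at steady state, where they held 11.1% and 58.6% of all UMIs. Lyve1-positive cells had less Pdgfb than Lyve1-negative cells in both libraries, 17.9 against 26.8 CPM at day 11 and 23.4 against 29.6 CPM at steady state.

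Pdgfc had 10.7 CPM at day 11 (9.68 to 11.7), against 15.1 CPM at steady state (13.6 to 16.8) and 3.27 CPM in the mixed library (1.97 to 5.10). The ratio to steady state was 0.704 (0.609 to 0.813). The level of Pdgfc went with the resident markers: Lyve1-positive cells had 21.3 CPM, against 9.42 CPM in Lyve1-negative cells, at day 11 (2.26, 1.75 to 2.88) and 20.4 against 9.59 CPM at steady state (2.13, 1.68 to 2.70). Even so, the Timd4 and Lyve1 classes held only 21.2% of Pdgfc UMIs at day 11, against 78.5% at steady state. They held 11.1% and 58.6% of all UMIs. The Gpnmb class held 24.7% of Pdgfc UMIs at day 11. The Timd4 class had 24.2 CPM at day 11 and 21.2 CPM at steady state. Cluster 5 (haemoglobin genes, Lyve1, Ccl24 and Folr2) had the highest Pdgfc level, 42.1 CPM at day 11 and 30.4 CPM at steady state, and Lyve1-positive and Lyve1-negative cells within it were alike at day 11 (41.8 and 41.0 CPM). Erythroid markers in the macrophages summed to 2.90 CPM at day 11, 390 CPM at steady state and 0.687 CPM in the mixed library, and their part in these values was not tested.

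Vegfb encodes a relative of Vegfa that binds the receptors Flt1 and Nrp1. It had 15.7 CPM at day 11 (14.5 to 17.0), against 19.3 CPM at steady state (17.5 to 21.2) and 8.08 CPM in the mixed library (5.93 to 10.7). Lyve1-positive cells had 21.5 CPM, against 15.2 CPM in Lyve1-negative cells, at day 11, and 22.8 against 15.6 CPM at steady state. Gpnmb-positive day 11 cells had 21.7 CPM and Gpnmb-negative cells 14.3 CPM (1.52, 1.28 to 1.81). Vegfa had the opposite order in the same cells, 2.55 and 4.46 CPM.

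Over all macrophages of day 11 and of steady state, both receptors were higher in Lyve1-positive cells than in Lyve1-negative cells. Fgfr1, a receptor tyrosine kinase for fibroblast growth factors, had 10.2 CPM at day 11 (9.22 to 11.2), against 61.8 CPM at steady state (58.6 to 65.1) and 55.9 CPM in the mixed library (49.9 to 62.3). It was 6.08-fold lower than at steady state (5.45 to 6.79) and 5.49-fold lower than in the mixed library (4.74 to 6.36). The second value depends in part on cluster 12, which held 60.0% of the Fgfr1 UMIs of mixed-library macrophages in 20.5% of these cells. At equal depth, 2.31% of day 11 macrophages had an Fgfr1 UMI, against 14.9% at steady state and 12.3% in the mixed library.

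Lyve1-positive cells had 52.3 CPM Fgfr1 at day 11 and Lyve1-negative cells 5.91 CPM, a ratio of 8.84 (7.26 to 10.8). At steady state the values were 88.8 and 33.4 CPM (ratio 2.65). The day 11 difference was smaller within a cluster. The ratio was 1.23 in cluster 5 (0.778 to 2.03), 2.40 in cluster 2 and 2.32 in cluster 6 (Lyve1, Cbr2 and Folr2). In cluster 1 it was 4.47, from 5 UMIs in Lyve1-positive cells. Pdgfc, Hbegf and Fgfr1 were the 3 of 10 genes at least 2-fold higher in Lyve1-positive cells at day 11, where 1.93% of genes were, and Pdgfc and Fgfr1 were the 2 of 10 at steady state, where 0.598% were. Hbegf lay under 20 CPM in both Lyve1-positive and Lyve1-negative cells, the minimum behind these shares. Pdgfc, Hbegf and Fgfr1 were also at least 2-fold higher in Timd4-positive cells at day 11, where 2.52% of genes were. The Timd4 class had 53.4 CPM Fgfr1 at day 11, against 94.5 CPM at steady state, and the Lyve1 class 45.5 against 77.4 CPM. Cells with none of the status genes had 6.62 CPM at day 11 and 34.8 CPM at steady state. In the Gpnmb class, which held 17.2% of day 11 UMIs, Fgfr1 was at 2.11 CPM. In cluster 5 it was 93.1 CPM at day 11, 124 CPM at steady state and 115 CPM in the mixed library. DCs carried Fgfr1 as well, 30.5 CPM at day 11 and 62.4 CPM in the mixed library, where cluster 12 held 103 CPM and the Ccr2 class 50.6% of the macrophages' Fgfr1 UMIs.

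Nrp1 encodes neuropilin 1, a co-receptor for VEGF and semaphorins. It had 203 CPM at day 11 (198 to 207), against 284 CPM at steady state (277 to 291) and 123 CPM in the mixed library (114 to 132). At day 11 it was thus between the uninjured libraries. In 3 classes day 11 and steady state were close: the Timd4 class had 356 CPM at day 11 and 349 CPM at steady state, the Lyve1 class 340 and 319 CPM, and the Ccr2 class 168 and 165 CPM. The Ly6c2 class had 121 CPM at day 11 and 210 CPM at steady state, and cells with none of the status genes had 209 and 247 CPM. The Timd4 class of the mixed library had 334 CPM. Lyve1-positive cells exceeded Lyve1-negative cells 1.98-fold at day 11 (367 and 186 CPM) and 1.51-fold at steady state (340 and 225 CPM). Within day 11 clusters the ratio was 1.05 in cluster 1, 1.37 in cluster 2, 1.40 in cluster 5 and 0.952 in cluster 6. In DCs Nrp1 was at 69.4 CPM at day 11 and 60.0 CPM in the mixed library.

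Ly6c2- and Ccr2-positive cells of day 11 were the low end for several factors. Igf1, Pdgfc, Vegfb and Gdf15 were at least 2-fold lower in Ly6c2-positive than in Ly6c2-negative cells, where 1.22% of genes were, and Vegfa was at least 2-fold higher, where 2.96% were. Igf1, Pdgfc and Gdf15 were at least 2-fold lower in Ccr2-positive than in Ccr2-negative cells, where 0.415% of genes were. Tgfb1 was at 303 CPM in Ly6c2-positive and 233 CPM in Ly6c2-negative cells (1.30, 1.17 to 1.44). The Ly6c2-positive values rest on 108 cells, 78 of which also had a Ccr2 UMI. Pdgfc and Gdf15 had 3 UMIs each in them, with ratios of 0.226 (0.0464 to 0.664) and 0.204 (0.0419 to 0.599). The shares of genes beside these counts come from genes with at least 20 CPM in the positive or the negative cells, and the counts from all 10 genes. At that minimum Igf1 alone remains past 2-fold, among 4 genes for Ly6c2 and 4 for Ccr2.

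To set changing levels beside changing cells, the day 11 level was recomputed with the class shares of steady state. For Nrp1 the ratio within classes was then 0.994, and the class shares alone gave 0.718. For Pdgfc the values were 1.01 and 0.687. With the class shares of steady state, both within-class values thus lay close to 1. For Nrp1 the classes of at least 20 cells differed, from 0.574 in the Ly6c2 class to 1.07 in the Lyve1 class. No intervals were computed for the recomputed ratios. Weighted by day 11 shares, Nrp1 had 0.929 and Pdgfc 1.30. Igf1 had 1.18 within classes and 0.968 from class shares, Tgfb1 0.894 and 1.01, and Vegfb 0.896 and 0.913. For Vegfb the direction turned when weighted by day 11 shares, to 1.17 within classes and 0.697 from class shares. For Pdgfb, 0.837 within classes and 1.17 from class shares made up the ratio of 0.982, but weighted by day 11 shares the values were 1.01 and 0.973.

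Fgfr1 had 0.501 within classes and 0.329 from class shares, Hbegf 0.825 and 0.595, and Gdf15 1.95 and 1.35. Both Fgfr1 values thus lay below 1. Thinning leaves part of the marked cells outside their class. At steady state 24.2% of macrophages had a Timd4 UMI at equal depth and 56.0% without thinning, and at day 11 3.65% and 7.54%. A difference in make-up can therefore remain within classes, and its size was not tested. With macrophage clusters in place of the classes, Fgfr1 had 0.665 and 0.248, Hbegf 0.872 and 0.560, Gdf15 1.39 and 1.89, and Igf1 1.06 and 1.08. Weighted by day 11 shares in place of those of steady state, Fgfr1 had 0.269 within classes and Igf1 1.27. Vegfa had 10.6 within classes, 3.33 within clusters and 1.59 when weighted by day 11 shares, and its 6 steady-state UMIs do not settle the split.

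**Figure D4:**
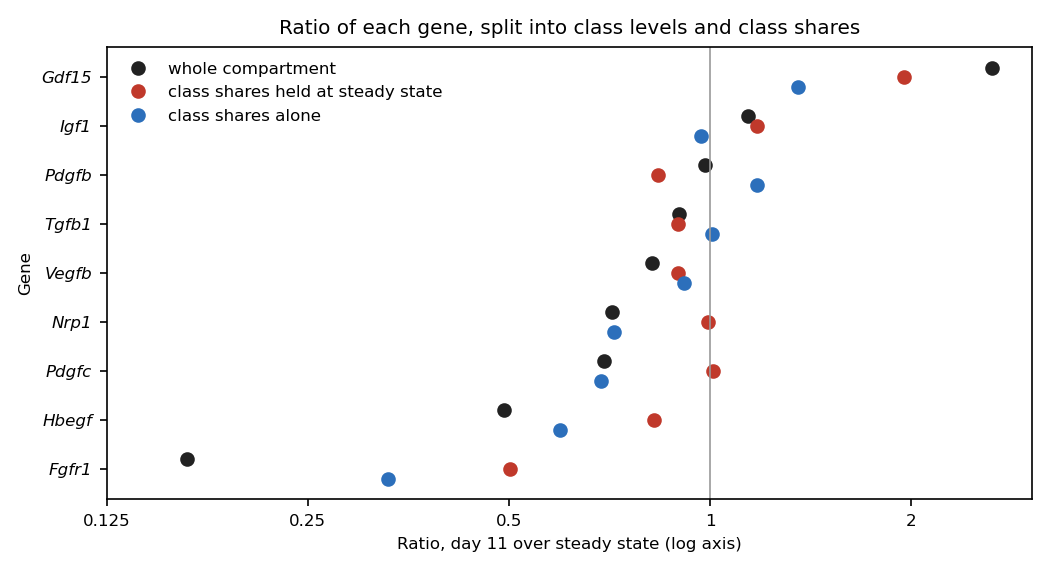
Ratio of day 11 to steady state (log axis) for 9 genes: over all macrophages, within classes with the class shares held at steady state, and from class shares alone. The within-class points of Nrp1 and Pdgfc lie close to 1, and all Fgfr1 points lie far below it. Vegfa is left out because its steady-state level rests on 6 UMIs.

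Other genes of the same pathways were counted from pathway lists, over genes with 5 CPM or more at day 11 or at steady state, of which 5.41% of 9124 were past 2-fold. In the IGF list 2 of 8 genes were at least 2-fold higher at day 11 than at steady state and none lower: Igf2r, which binds and clears IGF2, had 7.63 against 1.02 CPM, and Igfbp6, an IGF-binding protein, had 8.52 against 0.712 CPM. Igfbp4, also an IGF-binding protein, had 185 against 352 CPM, and the receptor Igf1r had 12.2 against 17.1 CPM. In the PDGF list 0 of 3 passed 2-fold, with Pdgfa at 34.7 against 22.3 CPM. Of 6 VEGF list genes, Sema4d, a semaphorin, was higher (64.7 against 25.9 CPM). In the EGF list, 1 of 6 was higher, the tetraspanin Cd9 that associates with pro-HB-EGF (580 against 199 CPM), and 2 were lower, Hbegf and its receptor Egfr (0.604 against 5.08 CPM).

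Of 19 genes in the TGF-beta list, 3 were past 2-fold at day 11, all higher. They were Thbs1, a matricellular protein that can activate latent TGF-beta, with 31.8 against 1.65 CPM, Ltbp3, a latent TGF-beta binding protein, with 6.21 against 1.51 CPM, and the inhibitor Smad7, with 13.9 against 4.81 CPM. In the list of GDF15 and stress genes, Gdf15 was the 1 of 7 past 2-fold, with Atf4 at 77.9 against 105 CPM. In the FGF list 1 of 5 was lower (Fgfr1), and in the hypoxia list 1 of 10 was higher, the glucose transporter Slc2a1 (16.8 against 8.37 CPM). The median log2 ratios of the 8 lists ran from -0.25 (FGF) to 0.28 (hypoxia), against -0.09 for the 9124 genes at this minimum. Against the mixed library, 5 of 8 IGF genes and 2 of 3 PDGF genes were at least 2-fold higher at day 11 (10.1% of 8879 genes were past 2-fold), and the VEGF, TGF-beta and FGF lists had 2 higher of 6, 3 higher and 1 lower of 19, and 2 lower of 5. In the EGF list 1 of 5 was lower, and none of 7 stress genes or 10 hypoxia genes passed 2-fold.

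Levels were also followed over 15 class-and-library groups of at least 50 macrophages, which share depth and library, so the correlations are descriptions. Among 3034 genes, those most like Igf1 were Mertk (Pearson r = 0.95), Tpp1 (0.95) and C3ar1 (0.95). For Vegfa they were Slpi (0.98), Arg1 (0.98) and Sod2 (0.96), and for Fgfr1 Eps8 (0.96), Cd164 (0.94) and Pepd (0.93). Arg1 UMIs were used to form the groups, so the Arg1 match repeats the Vegfa level of the Arg1 class and adds no support. Vegfa stood out only in the day 11 Arg1 and Ly6c2 classes (21.6 and 14.9 CPM). Its matches to Slpi and Sod2 thus also rest largely on these groups. Nrp1 was most like Rnase4 (0.98), Ang (0.97) and Igfbp4 (0.97), Pdgfc like Akr1b3 (0.92), Vegfb like Rit1 (0.91), Pdgfb like Basp1 (0.93), Hbegf like Zfand5 (0.95), and Tgfb1 like Tifab (0.92). Gdf15 had the loosest match, Serinc1 (0.84). Between the 10 genes themselves, Igf1 was closest to Vegfb (0.85) and Nrp1 (0.81), Pdgfc to Nrp1 (0.79), and Tgfb1 ran against Gdf15 (-0.80).

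Status UMIs in the DC clusters were counted as a guide to background from free RNA, although DCs may also express these genes. Of 70 day 11 DCs at equal depth, 1.43% had an Arg1 UMI, against 6.88% of macrophages, 7.14% had a Gpnmb UMI, against 18.5%, and 1.43% a Lyve1 UMI, against 8.06%. No Timd4 or Ly6c2 UMI was found in them, a share whose exact interval reaches 5.13%. The median depth was 8872 UMIs in these DCs and 8149 in the macrophages. In the mixed library 4.38% of DCs had a Timd4 UMI, against 9.64% of macrophages. There Timd4 was at 22.9 CPM in DCs and 46.4 CPM in macrophages, and Lyve1 at 1.84 and 136 CPM. Whether the UMIs in DCs are background or their own expression was not tested. A class may thus hold cells whose only status UMI is background, and a cell without a UMI may still express the gene.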

How the data were processed

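Single-cell RNA was measured in 3 libraries (10x Chromium 3′ v2, 1 per group). The authors deposited raw UMI counts, with barcodes as columns and genes as rows. Per the submitters' processing notes they used Cell Ranger, STAR and mm10, with versions not given in the sources used here. All genes, status genes and lists were chosen with earlier results of these data known.

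Cells were kept with at least 500 genes and at most 10% mitochondrial UMIs. The cells with the highest Scrublet doublet scores were removed up to the doublet number expected from the barcode count (175 at day 11, 25 at steady state and 25 in the mixed library), since the automatic threshold marked 0 at day 11, 8 at steady state and 2 in the mixed library. Clustering used Scanpy 1.11.5 (2000 variable genes, 30 components, 15 neighbours, Leiden resolution 1.0), which gave 17 clusters. Clusters with a mean of at least 600 CPM over 8 macrophage markers were taken as macrophages, a limit set after seeing the data. Of the rest, those with a median log2 ratio of DC markers above 0 were called DCs. Status used cells thinned to 3000 UMIs, which left out 76 macrophages at day 11, 0 at steady state and 146 in the mixed library, and levels used all UMIs of a cell. UMIs were summed per library. Levels have exact Poisson, ratios conditional binomial and shares Clopper-Pearson 95% intervals. Ratios were called at 2-fold, without p-values. The text names all 10 genes, the 6 status genes, genes of 8 pathway lists, and the 3 genes most correlated with each (log2 CPM plus 10, at least 50 CPM, groups of at least 50 cells). Alternatives changed the doublet, depth, status, class and minimum settings. Fold calls, ratio intervals and thinning were checked on simulated data. Clustering, the status classes and the split into class levels and class shares were not.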

Additional observations from a re-analysis of the deposited data

Results flagged for a closer look

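For 2 genes the ratio of day 11 to steady state ran in opposite directions in different classes of macrophages, with intervals that do not include 1. Igf1 had a ratio of 1.26 in cells with none of the 6 status genes (286 against 227 CPM) and 0.739 in the Ly6c2 class (122 against 165 CPM, 102 and 36 cells). Hbegf had a ratio of 1.48 in the Timd4 class (27.3 against 18.5 CPM, 158 and 414 cells) and 0.469 in cells with none of the 6 (6.90 against 14.7 CPM). In the Lyve1 class Hbegf was lower (0.668, 0.458 to 0.956). Over the mixed library, Igf1 in the Ly6c2 class turned to 16.0 (2.82 to 636), from 1 UMI in 19 mixed-library cells. Hbegf in the Timd4 class turned to 0.280 (0.179 to 0.436). In cells with none of the 6, both kept their direction, at 1.71 for Igf1 and 0.256 for Hbegf. With 1 library per group, the differences between classes were not tested beyond counting error.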

How the results depend on the processing

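No paired analysis was possible because each group has 1 library and no replicate numbers. The count of 4 genes past 2-fold against steady state was 3 or 4 under every setting run, and that of 5 against the mixed library was 4 to 7 (7 with DCs included). Hbegf left the first count at a mitochondrial limit of 5% and after division by the median ratio of all genes (0.509). The count of genes within 1.5-fold of both libraries, 1, became 2 with Nrp1 after division by the median ratio, with a mean over cells, and without cluster 12. The count of 232 genes past 2-fold became 494 at a minimum of 5 CPM. The count past 2-fold with class shares held, 1 (Vegfa), became 2 with status at 2 UMIs (Fgfr1, 0.448), with status without thinning (Gdf15, 2.22) and with the other class order (Fgfr1, 0.432). Weighted by day 11 shares it was 1 with another gene, Fgfr1 (0.269), in place of Vegfa (1.59). Some ratios near 1 changed sides. Within classes these were Vegfb (0.896 to 1.17) and Pdgfb (0.837 to 1.01) weighted by day 11 shares, Pdgfc (1.01 to 0.966 with status at 2 UMIs and 0.886 with the other order), Nrp1 (0.994 to 1.03 without thinning and 1.08 with clusters), and Hbegf (0.825 to 1.00 without thinning). From class shares they were Igf1 (0.968 to 1.08), Tgfb1 (1.01 to 0.919), both with clusters, and Pdgfb (1.17 to 0.973 weighted by day 11 shares). With the other order Igf1 and Vegfb gave 1.00 and Tgfb1 0.992 from class shares. The alternatives without cluster 12 or the cycling cluster 11, with clusters for classes, and the 5% and thinned settings against the mixed library were chosen after seeing the data. The cause of these shifts was not tested. The depth limits Vegfa most, with 6 UMIs at steady state and 3 in the mixed library, and 1 library per group leaves the spread between animals unknown.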
